A study of Mus musculus with 6 samples.

Results

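The cells described here were Kit-positive erythroid progenitors of the mouse fetal liver, 4396 of the 117329 segmented cells in a section of a wild-type (C57BL/6) liver at embryonic day 14.5 (E14.5). They were chosen by their transcript counts: at least 3 of Kit, at least 5 of Klf1, Epor and Gata1 together, and none of the complement genes C1qa, C1qb and C1qc, which mark macrophages. The cells set against them were 40835 Slc4a1-high cells of the same section, with at least 8 transcripts of Slc4a1, no Kit and no C1q transcript. The whole series held 521938 cells.

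The study mapped erythroid niches in mouse blood-forming organs by in situ imaging, in which gene-specific probes are decoded one RNA molecule at a time and each molecule is assigned to a segmented cell. There were 6 sections, 1 per condition, all from wild-type mice. All were cut at 5 µm from paraffin blocks of formalin-fixed tissue, except that the 89-week marrow was fixed in paraformaldehyde and freed from bone by cryosectioning before it went into paraffin. Besides the E14.5 liver, the text uses the bone marrow of mice at postnatal day 8 (P8 marrow) and the spleen of mice injected with 40 mg/kg phenylhydrazine (PHZ), a drug that destroys red cells, and refers to the untreated adult spleen, the E13.5 liver and the bone marrow of 89-week-old mice. The E14.5 liver, the P8 marrow and both spleens shared a panel of 477 genes, the other sections one of 5050. The sources used here do not say from how many embryos the liver section came. With 1 section per condition there was no replicate and no test between conditions. Every interval below is an exact 95% interval that covers counting error only.

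Kit is the receptor for stem cell factor and is carried by early blood progenitors, including those committed to the red cell lineage, and is lost as erythroblasts mature. Epor, the erythropoietin receptor, keeps these progenitors alive and dividing. Gata1 and Klf1 are transcription factors that switch on the red cell genes, and Slc4a1 encodes band 3, the anion exchanger of the red cell membrane, which accumulates late. The liver is the main site of red cell production in the mid-gestation mouse embryo.

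The 3 genes of the erythroid sum and Hemgn, a nuclear regulator that lay on the low side of the comparison below, are shown by the 250 bases before the start of the gene, because GATA1 and KLF1 are known to act on red cell genes through GATA and CACC-type letters. The windows are from RefSeq on build GRCm38.p6 and read 5′ to 3′ on the strand of the gene. They lie at chr8:84901732-84901981 (plus strand) for Klf1, chrX:7967911-7968160 (minus) for Gata1, chr9:21963577-21963826 (minus) for Epor and chr4:46404184-46404433 (minus) for Hemgn. Capitals mark matches on either strand to the GATA letters (AGATAA and AGATAG, or with another first letter TGATAA and TGATAG) and to the CACC-type letters CCNCACCC.
Klf1: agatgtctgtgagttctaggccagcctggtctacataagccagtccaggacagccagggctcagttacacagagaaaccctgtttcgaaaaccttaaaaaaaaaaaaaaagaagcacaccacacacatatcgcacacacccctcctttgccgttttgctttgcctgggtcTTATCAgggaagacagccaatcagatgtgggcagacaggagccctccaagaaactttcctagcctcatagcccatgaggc
Gata1: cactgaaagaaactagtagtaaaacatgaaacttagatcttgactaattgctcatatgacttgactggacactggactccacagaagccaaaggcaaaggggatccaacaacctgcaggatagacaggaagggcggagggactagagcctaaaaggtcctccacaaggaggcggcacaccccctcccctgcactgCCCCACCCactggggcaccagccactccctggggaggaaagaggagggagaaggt
Epor: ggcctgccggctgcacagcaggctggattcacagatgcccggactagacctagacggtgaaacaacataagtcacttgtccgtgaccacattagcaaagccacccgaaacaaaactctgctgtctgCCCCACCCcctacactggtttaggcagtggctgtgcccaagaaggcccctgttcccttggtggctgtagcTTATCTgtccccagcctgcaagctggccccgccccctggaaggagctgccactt
Hemgn: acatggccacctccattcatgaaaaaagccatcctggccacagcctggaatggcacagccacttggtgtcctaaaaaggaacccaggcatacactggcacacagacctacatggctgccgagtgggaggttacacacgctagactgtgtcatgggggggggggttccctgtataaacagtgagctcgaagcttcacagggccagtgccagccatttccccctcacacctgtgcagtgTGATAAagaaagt
The Klf1 window held 1 GATA match, the Gata1 window 1 CACC-type match, the Epor window 1 of each and the Hemgn window 1 GATA match. Windows of Kit and Cd44 were also searched and are not shown. Those of Kit held 0 matches of either type, and that of Cd44 held 1 GATA match. Of 27025 genes with a promoter window, 29.7% held the GATA letters and 16.6% the CACC-type letters. Among the genes at least 2-fold higher in the progenitors (below), 11 of the 36 with a window held the GATA letters (30.6%), and among those at least 2-fold lower 5 of 17 (29.4%). Both GATA shares lay near that of all windows. The CACC-type letters were held by 10 of the 36 (27.8%) and 4 of the 17 (23.5%). Among the 242 counted genes with a window the share was 27.3%. Both gene sets thus lay above all windows, while the first was near the genes compared and the second below them. A match is a description of letters, not of a bound site.

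The rule fixed the levels of its own genes, which are given as a description. In the progenitors Kit averaged 5.50 ± 2.93 transcripts per cell (SD over cells, as below), with a median of 5 and a highest value of 23. Klf1 averaged 6.83 ± 3.71, Epor 7.14 ± 4.25 and Gata1 4.68 ± 2.86. Klf1, Epor and Gata1 were seen in 99.2%, 98.5% and 97.0% of the members, which the limit on their sum favors. In the Slc4a1-high cells, chosen without that sum and with fewer transcripts per cell, they were seen in 88.7%, 82.3% and 80.1%. In the section as a whole Kit averaged 0.496 transcripts per cell and was seen in 20.4% of cells. Of 6921 cells with at least 3 Kit transcripts, 1025 were left out by the erythroid sum and 1500 by a C1q transcript.

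The threshold on Kit cut through a gradient. Among cells with the erythroid sum and no C1q, 1266 had exactly 3 Kit transcripts and 2215 had exactly 2. Levels here are transcripts of a gene per 1000 transcripts of all genes other than the 8 used by either gate. Podxl stood at 16.8 just inside the threshold and 14.3 just outside, Cd44 at 14.2 and 11.3, Hemgn at 35.3 and 40.8. At the other threshold, 142 members had an erythroid sum of exactly 5 and 138 cells were left out with a sum of 4. Mpo, the myeloperoxidase of granulocyte precursors, stood at 23.3 in the first and 51.3 in the second, against 4.81 in all members, so cells near this limit carried more of it.

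Progenitors were larger and richer in transcripts than Slc4a1-high cells. The median was 249 transcripts of 66 genes per progenitor and 174 of 47 genes per Slc4a1-high cell. The median cell area was 70.3 µm² against 47.7 µm², and the median nucleus area 41.3 µm² (quartiles 32.7 and 50.2) against 27.4 µm² (quartiles 21.9 and 34.3), a ratio of 1.51. Transcripts per 100 µm² of cell were close, at 361 and 373. A cell with more transcripts passes a count threshold more easily. In cells of both gates with 150 to 250 transcripts the nucleus ratio was 1.20 (35.6 µm² in 1911 progenitors, 29.6 µm² in 20130 Slc4a1-high cells). Within this range the direction was the same and the ratio smaller. Depth inside the range was not matched between the gates.

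**Figure D1:**
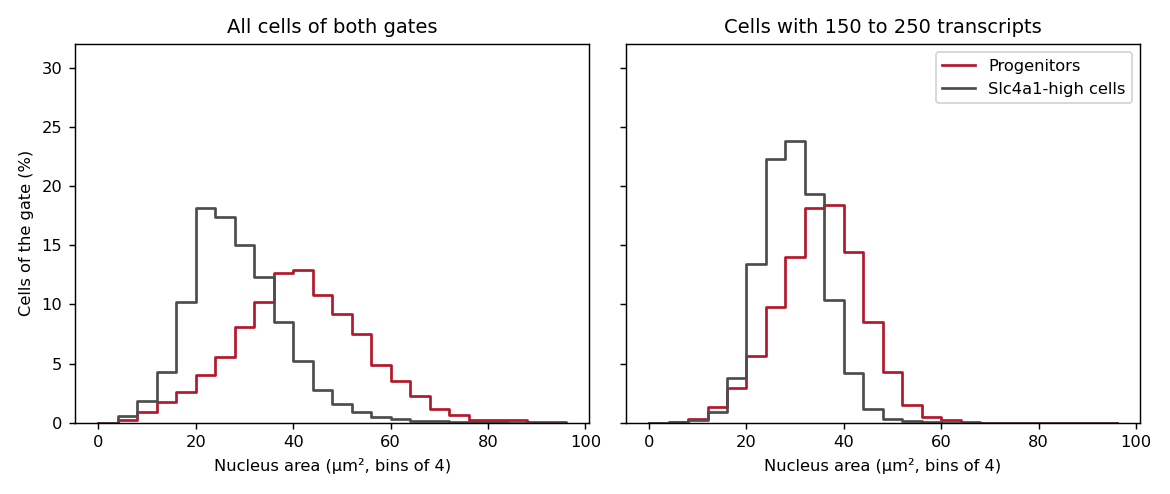
Nucleus area (µm², horizontal axis, bins of 4 µm²) against the percent of cells of each gate (vertical axis), for progenitors and Slc4a1-high cells of the E14.5 liver, in all cells (left) and in cells with 150 to 250 transcripts (right). The progenitor curve lies to the right in both panels, with medians of 41.3 and 27.4 µm² on the left and 35.6 and 29.6 µm² on the right.

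Outside the genes of the gates, the listed genes at least 2-fold higher in progenitors included Cd44, Podxl, Itgb1, Hk1 and Stmn1, and those at least 2-fold lower included Slc25a37, Hemgn, Rhd and Isg20. Of 328 genes with at least 200 transcripts over both gates, 47 were at least 2-fold higher in the progenitors (14.3%) and 26 at least 2-fold lower (7.93%), and the median ratio was 1.13. The folds below divide the level in pooled progenitors by that in pooled Slc4a1-high cells. Cells of 1 section are not replicates, so a fold past 2 is a size and not a test. Counts that follow for gene groups are read against those 2 shares. The groups were listed with earlier results of these data known, so their counts are a description and not independent support.

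Of the cytoskeleton and adhesion genes, 5 of 6 were at least 2-fold higher and 1 was at least 2-fold lower, with a median ratio of 2.61. Cd44, the hyaluronan receptor, averaged 4.11 ± 2.82 transcripts per progenitor and 0.454 ± 0.902 per Slc4a1-high cell. Its fold was 6.39 (6.26 to 6.53), and with each cell thinned to 100 transcripts it was seen in 76.6% of progenitors and 18.3% of Slc4a1-high cells. Itgb1, the beta 1 integrin chain, averaged 6.66 and 1.80 transcripts, a fold of 2.62. The sialomucin gene Cd164 had a fold of 2.59, the actin-nucleating formin Diaph1 2.71 and the small GTPase Rac2 2.01, the last at the limit. Plek2, a pleckstrin family gene of the erythroblast cytoskeleton, ran the other way, with 0.632 transcripts per progenitor, 1.11 per Slc4a1-high cell and a fold of 0.401. One group thus held genes on both sides.

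Among the progenitor stage genes, 3 of the 4 with enough transcripts were at least 2-fold higher and none lower, with a median of 2.48. Podxl, a sialomucin of early blood and endothelial cells, averaged 4.71 ± 3.77 transcripts in progenitors and 0.583 ± 1.27 in Slc4a1-high cells, a fold of 5.71 (5.60 to 5.81). Hk1, the hexokinase that opens glycolysis, averaged 7.85 and 2.12 transcripts (fold 2.62), and the mitochondrial gene Ndufa4l2 1.5 and 0.451 (fold 2.35). The 10th and 90th percentiles of Hk1 were 3 and 14 transcripts in progenitors and 0 and 5 in Slc4a1-high cells, so the ranges overlapped while the middles stood apart. Ctse, an aspartic protease of erythroid cells, had a fold of 1.47. Asb9 had 4 transcripts in progenitors and 57 in Slc4a1-high cells, under the minimum, and was not counted.

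The red cell membrane and transport genes lay on both sides. Of the 4 reported here, 2 were at least 2-fold lower and 2 at least 2-fold higher. The Rh antigen gene Rhd averaged 2.75 transcripts per progenitor and 4.45 per Slc4a1-high cell, a fold of 0.437, and the fatty acid receptor Cd36 had a fold of 0.426. The urea transporter Slc14a1, which carries the Kidd antigen in humans, went the opposite way with 3.06 and 0.811 transcripts per cell (fold 2.66), as did the water channel Aqp1 with 3.39 and 1.09 (fold 2.20). These membrane proteins of the red cell were therefore split between the early and the late gate at the level of RNA.

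The late erythroid group was split as well, with 1 of 4 genes at least 2-fold higher and 1 at least 2-fold lower. Selenbp1, a selenium-binding protein abundant in red cells, averaged 2.00 and 0.541 transcripts (fold 2.62). The interferon-stimulated exonuclease gene Isg20 had a fold of 0.484, the globin gene Hbb-bt 0.522 and the carbonic anhydrase gene Car2 0.741. Hbb-bt was seen in 99.4% of progenitors, at 10.7 ± 6.28 transcripts per cell against 14.5 ± 6.93 in Slc4a1-high cells. Over all cells of the section it was seen in 98.7%, at 12.002 ± 7.41 transcripts. The presence of Hbb-bt thus did not set progenitors apart from other cells.

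Heme and iron genes differed by unequal amounts. Of the 3 genes for heme synthesis and mitochondrial iron reported here, 1 was at least 2-fold lower and none higher, with a median ratio of 0.662. That gene was Slc25a37, mitoferrin, which brings iron into the mitochondrion: 5.74 ± 4.17 transcripts per progenitor, 11.9 ± 5.65 per Slc4a1-high cell, fold 0.340 (0.336 to 0.345). The heme pathway enzyme Fech had a fold of 0.662, and Isca1, of iron-sulfur cluster assembly, 1.01. The transferrin receptor Tfrc, the only counted gene among the receptors, had a fold of 1.02 (1.01 to 1.03), with 10.1 and 6.96 transcripts per cell, so its level per transcript was close in both gates while each progenitor held more of it. Hemgn, the only counted gene among the nuclear regulators, was lower, with 6.52 and 10.1 transcripts per cell and a fold of 0.458. Among the genes of the rule the same ratio was 1.76 for Epor, 1.43 for Gata1 and 1.43 for Klf1, which the choice itself set.

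Of the 4 cell cycle genes, 1 was at least 2-fold higher and none lower. That was Stmn1, the microtubule-destabilizing stathmin, with 12.3 ± 5.74 and 3.39 ± 3.38 transcripts per cell and a fold of 2.57 (2.55 to 2.60). Cenpf, a kinetochore gene of the G2 phase, had a fold of 1.03, the formin Diaph3 1.03, and Ube2c, which drives the exit from mitosis, 0.898. With cells thinned to 100 transcripts, Ube2c was seen in 58.0% of progenitors and 58.9% of Slc4a1-high cells. Stmn1 was thus set apart from the other listed cycle genes, whose levels were close in both gates.

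**Figure D2:**
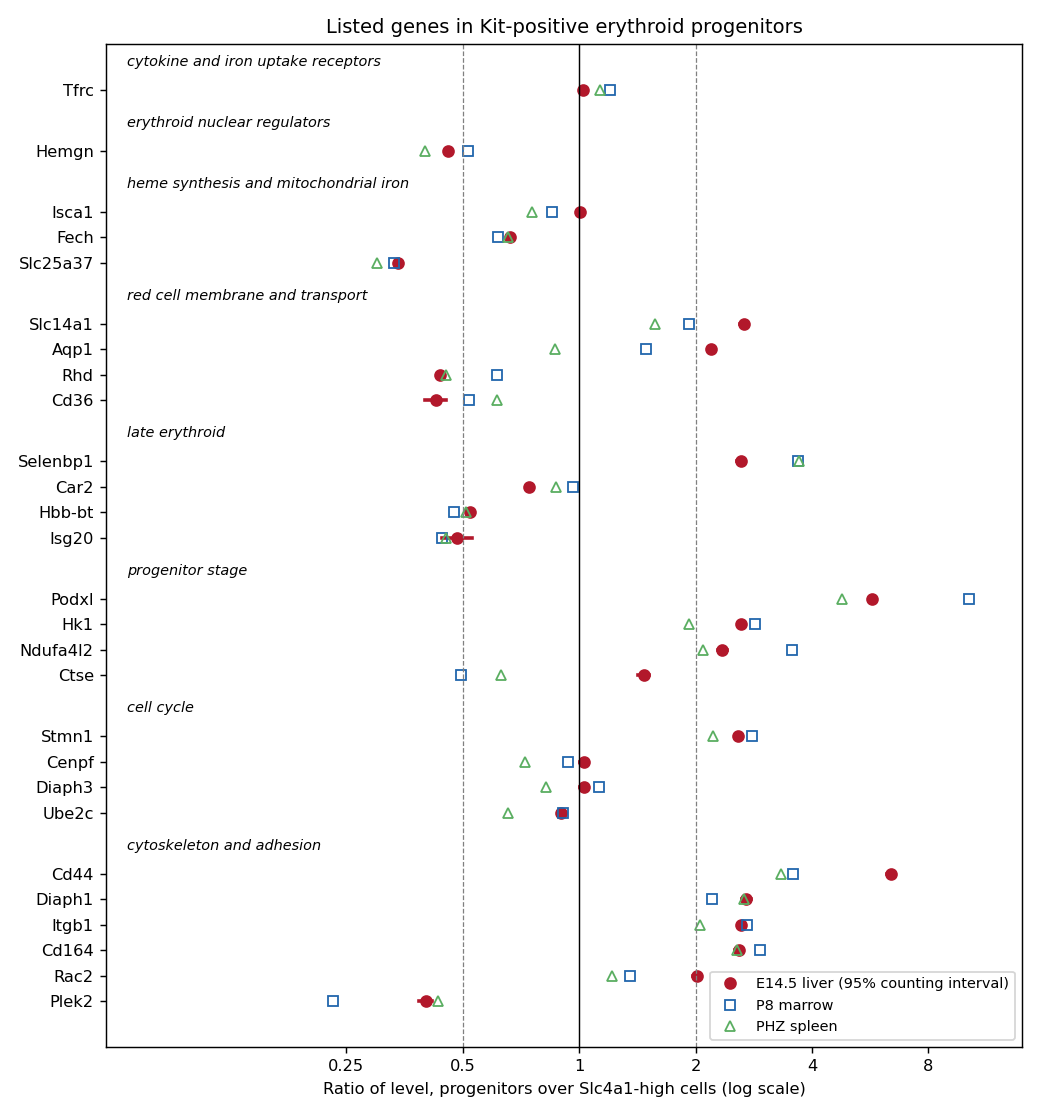
Ratio of the level in progenitors to that in Slc4a1-high cells (horizontal axis, log scale) for the counted genes of 8 lists (vertical axis), in the E14.5 liver (filled circles, bars for the 95% counting interval), the P8 marrow (squares) and the PHZ spleen (triangles). Dashed lines mark 2-fold, and Podxl and Cd44 lie farthest to the right in the liver at 5.71 and 6.39, Slc25a37 farthest to the left at 0.340.

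The 10 genes with the largest ratio held genes of early and other blood lineages beside Cd44 and Podxl. Ikzf2, which encodes the zinc finger factor Helios, had the largest fold at 7.70 (6.94 to 8.54), though it averaged only 0.182 transcripts per progenitor and 0.0167 per Slc4a1-high cell. Cd48, a SLAM family receptor of blood cells, had 0.289 and 0.0329 transcripts (fold 6.22). The chromatin organizer Satb1 had a fold of 4.54, the transcription factor gene Runx2 4.19, and the granule protease genes Ctsg and Cpa3, of neutrophil precursors and mast cells, 4.56 and 3.61. These ratios were smaller where the erythroid sum had to reach 8, at 3.08 for Satb1, 2.27 for Runx2, 2.42 for Ctsg and 2.31 for Cpa3, with Ikzf2 at 5.61 and Cd48 at 5.025. Tmem147, a membrane protein of the endoplasmic reticulum, was both high and common, with 2.59 and 0.439 transcripts per cell and a fold of 4.18. Sbsn had a fold of 3.64. Rare and common genes therefore stood side by side among these 10.

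The smallest ratios included Slc25a37 and Plek2 together with genes of other tissues at low levels. Fbln5 (fold 0.314), Upk3b (0.318), Igfbp3 (0.380), Nnat (0.384), Sod3 (0.402) and Colec11 (0.406) all averaged under 0.4 transcripts in either gate. Of the stroma markers 4 of 6 were at least 2-fold lower, and the list summed to 0.948 transcripts per progenitor and 1.34 per Slc4a1-high cell (4.19 and 8.38 per 1000). Of the mesothelium markers 2 of 3 were at least 2-fold lower, yet that list summed to more in progenitors, at 1.66 and 0.948 per cell (7.31 and 5.92 per 1000). Gfap, best known as the intermediate filament gene of astrocytes, had 0.273 transcripts per progenitor and 0.550 per Slc4a1-high cell, a fold of 0.350.

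Markers of other cell types were looked at as whole lists, because transcripts of neighbors can fall inside a segmented outline. The 6 granulocyte genes summed to 1.75 transcripts per progenitor and 0.503 per Slc4a1-high cell, with 4 of the 6 at least 2-fold higher. The 5 stem and early progenitor genes summed to 0.722 and 0.252, with Cd34 (fold 3.0) and Cd48 past 2-fold and Ly6a at 0.0202 transcripts per progenitor. This list was not raised throughout: its median fold was 1.71 and its lowest 0.569. In both lists the median progenitor had 0. The 5 megakaryocyte genes were close per transcript, at 6.12 and 5.996 per 1000, and none passed 2-fold. The 7 hepatocyte genes summed to 12.5 and 6.70 transcripts per cell, and 55.1 and 41.9 per 1000, with none past 2-fold. The macrophage list, in which C1q was set to 0 by both gates, summed to 0.894 and 0.778 transcripts, and the endothelial list to 1.86 and 1.52. Per 1000 both lists were lower in progenitors, at 3.95 and 4.86 for macrophage genes and 8.23 and 9.49 for endothelial genes. To give the upper range, the 1000 cells with the highest sum of each list averaged 42.6 for granulocyte, 57.2 for hepatocyte and 46.8 for macrophage genes. These means are high by that choice and say nothing of what the gated cells are. The part of neighboring cells in these values was not tested.

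A minority of the members carried granulocyte precursor transcripts in number. At least 3 of Mpo, Elane and Ctsg together were found in 503 progenitors (11.4%, 10.52 to 12.42) and 4.10% of Slc4a1-high cells, and at least 10 in 183 progenitors (4.16%, 3.59 to 4.80) and 0.531% of Slc4a1-high cells. In those 183 cells Kit averaged 5.41 transcripts, near the 5.46 of the 3103 members with none of the 3 genes, while the erythroid sum averaged 11.4 against 19.0. Their Ikzf2 level was 5.51 per 1000 against 0.387, Cd48 5.85 against 0.843 and Podxl 6.26 against 22.2, and Cd44 was close at 16.9 and 18.3. Aqp1 and Slc14a1 were lower in them as well, at 6.91 against 15.5 and 5.89 against 14.1. Cpa3 was found in 202 members (4.595%). Ikzf2 and Cd48 were thus unevenly spread over the members. With progenitors alone limited to cells free of any granulocyte, mast cell or megakaryocyte list transcript, the folds were 2.92 for Ikzf2, 4.26 for Cd48, 6.07 for Podxl and 6.42 for Cd44, and Runx2 was at 0.704. With both gates so limited (1313 progenitors and 20044 Slc4a1-high cells, a choice made after seeing the data), they were 4.57, 6.89, 7.04 and 7.73.

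Among the members, genes were graded along both Kit and Slc4a1. From the 1266 members with 3 Kit transcripts to the 430 with 10 or more, Cd44 went from 14.2 to 23.1 per 1000, Podxl from 16.8 to 25.7, Hk1 from 28.8 to 44.9 and Tfrc from 40.6 to 49.9, while Hemgn went from 35.3 to 20.03 and Plek2 from 3.61 to 1.64. The cycle genes were highest in the top class, where Ube2c stood at 15.1 per 1000 and Cenpf at 10.45, against 9.96 and 6.61 at 3 Kit transcripts. The median nucleus area was 51.8 µm² in the top class and 37.3 µm² at 3 transcripts, and the median depth 315 and 229 transcripts, so Kit count, size and these genes moved together.

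Slc4a1 was seen in 96.4% of progenitors, at 7.07 ± 5.53 transcripts per cell, and 1586 of them (36.1%) had the 8 or more that the comparison cells needed. Over all cells of the section it was seen in 97.0%, at 11.4 ± 7.79 transcripts, and 63.9% had 8 or more. Its presence was therefore not particular to progenitors. In the 158 members without Slc4a1, Slc25a37 stood at 12.3 per 1000, Hemgn at 17.9 and Hbb-bt at 23.3. In the 346 members with 16 or more, the same genes stood at 51.1, 48.1 and 78.5. Podxl went the other way, from 23.0 to 12.3, Cd44 from 20.9 to 11.8 and Stmn1 from 58.9 to 40.9. Isca1 (23.9 and 23.5) and Gata1 (19.6 and 19.7) were close at both ends. Median depth was 214.5 transcripts at the low end and 307 at the high end, and median cell area 64.9 and 78.1 µm². Depth and size thus rose with the Slc4a1 count too. Slc4a1 in a progenitor also went with the number of Slc4a1-high cells centered within 10 µm, from 23.8 per 1000 with none to 40.0 with 3 or more. Hbb-bt went from 40.7 to 53.7 and Hemgn from 24.5 to 32.9 over the same classes. In the 1092 progenitors with no such neighbor the counts of genes were 56 higher and 19 lower, against 47 and 26 of 328 in all members. The number of genes with enough transcripts also depends on the cells used, so these counts are not shares. How much of the late RNA in progenitors came from neighbors was not tested.

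**Figure D3:**
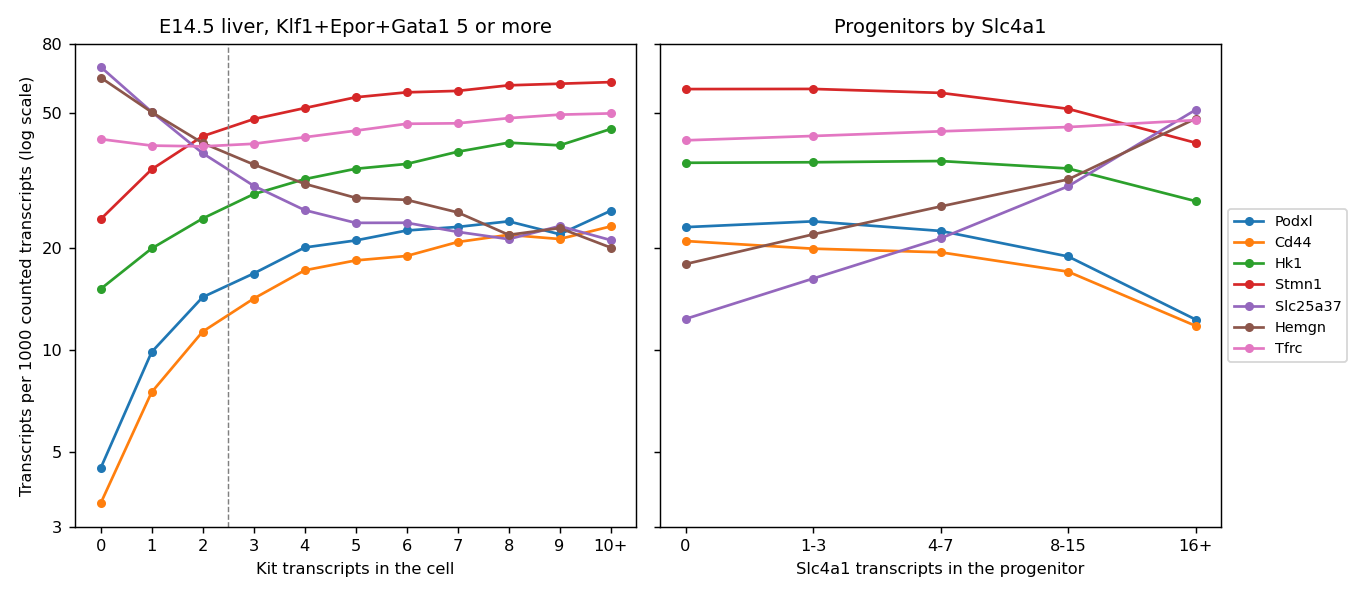
Level of 7 genes (transcripts per 1000 of all genes outside the gates, log scale) in E14.5 liver cells with the erythroid sum and no C1q, by Kit transcripts per cell (left, dashed line at the threshold of 3), and in progenitors by Slc4a1 transcripts per cell (right). Cd44 and Podxl are higher in the upper Kit classes, at 23.1 and 25.7 in cells with 10 or more, and Slc25a37 and Hemgn climb with Slc4a1.

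Genes differed in how often their transcripts lay over the nucleus. In progenitors 68.9% of Kit, 70.8% of Epor and 67.9% of Tfrc transcripts overlapped the nucleus, against 50.9% for Selenbp1, 53.3% for Ube2c and 55.3% for Stmn1. The nucleus made up a median of 59.3% of the cell area. Gating both populations on transcripts over the nucleus alone left 3072 progenitors, with 43 of 310 counted genes higher and 24 lower.

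The section held 4 separate pieces of tissue with 14462 to 57638 cells each, and progenitors made up 3.30% to 4.02% of the cells in each. Across 42 squares of 500 µm with at least 500 cells, the share ran from 1.11% to 5.92% with a median of 3.801%. Of 727 squares of 100 µm with at least 20 cells, 51 (7.02%) held none. The largest set of such squares that touched each other, picked out after the map had been seen, lay in the second largest piece and covered 12 squares with 1236 cells, of which 10 were Slc4a1-high. Its cells averaged 40.5 stroma list transcripts against 2.49 in the section and 0.659 hepatocyte list transcripts against 7.46. In the 31 squares with at least 50 cells of each gate the fold of Cd44 ran from 4.91 to 8.99, that of Podxl from 4.14 to 7.69, that of Stmn1 from 2.08 to 3.22 and that of Slc25a37 from 0.244 to 0.414. The direction of these genes was therefore shared by all 31 squares, which are places in 1 section and not replicates.

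Progenitors were most frequent a short way inside the margin of the tissue. This split was chosen after the map had been seen. In the outermost 25 µm they made up 2.06% of cells (1.71 to 2.45), and between 25 and 50 µm 5.99% (5.55 to 6.46). Farther in, the share was 4.64% from 50 to 100 µm, 3.84% from 100 to 200 µm and 3.04% (2.88 to 3.19) at 200 µm or more. Slc4a1-high cells were instead most frequent deep in the tissue, with 25.1% of cells in the outermost band, 28.8% in the next and 36.9% at 200 µm or more. As a share of both gates together, progenitors were 17.2% between 25 and 50 µm and 7.60% at 200 µm or more. The outermost band held 14.2 stroma list transcripts per cell against 4.37 in the next and 1.16 in the deepest, and median depth was 169, 173 and 166 transcripts. The share at 25 to 50 µm was 1.97 times that at 200 µm or more, and 2.02 times without the set of 12 squares.

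The pieces were not alike in this. In the largest piece the share was 5.73% within 50 µm of the edge, 5.24% from 50 to 100 µm and 3.41% deeper in, and in the second it was 4.70%, 4.37% and 2.79%. The third had 3.87%, 4.50% and 3.60%. In the smallest the order was turned, with 3.63%, 4.01% and 4.22%. The fall from edge to depth was thus seen in the 2 larger pieces, not in the smallest. The band within 50 µm joins the outermost 25 µm with the band of 25 to 50 µm. Whether the peak at 25 to 50 µm was present in each piece therefore cannot be read from these values.

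**Figure D4:**
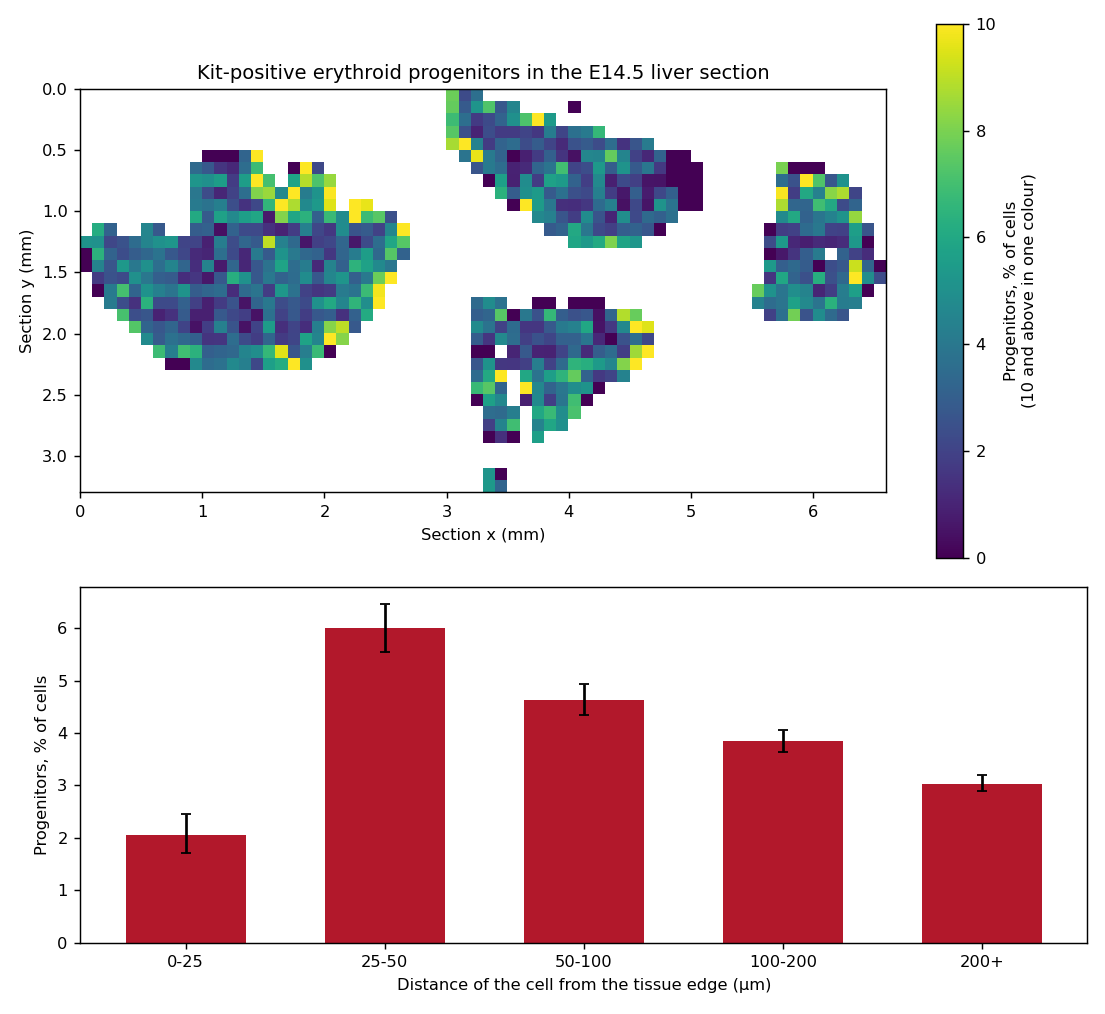
Upper panel, the E14.5 liver section (position in mm) in squares of 100 µm with at least 20 cells, colored by the percent of cells that were progenitors. Lower panel, percent of cells that were progenitors by distance from the tissue edge (µm), with exact 95% intervals for counting error. The brightest squares lie along margins, and the share is highest at 25 to 50 µm, at 5.99%.

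Progenitors had more progenitors around them than Slc4a1-high cells did. A progenitor had a mean of 1.32 other progenitors within 20 µm, a Slc4a1-high cell 0.820 and a C1q-free cell of any kind 0.923. The ratio of the first pair of means was 1.61, and it was 2.29 within 10 µm and 1.32 within 40 µm. As a share of all neighbors within 20 µm, progenitors were 5.83% around progenitors and 3.41% around Slc4a1-high cells. The median distance to the nearest other progenitor was 14.2 µm. Linked at 15 µm, 46.8% of progenitors stood alone and 10.8% lay in groups of 5 or more, the largest of which held 13. Kit also stood at 0.211 transcripts in other C1q-free cells with no progenitor within 10 µm, 0.372 with 1 and 0.527 with 2. The Slc4a1-high gate allows no Kit, so cells that hold such Kit beside a progenitor are left out of it. Within 10 µm progenitors were 7.53% of neighbors around progenitors and 2.90% around Slc4a1-high cells. Around C1q-free cells of any kind, which have no Kit limit, they were 4.02%. The part of carry-over and of the Kit limit in the ratios was not tested. With at least 5 Kit transcripts asked for, the ratio within 20 µm was 1.77.

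Cells with at least 3 C1q transcripts were somewhat fewer around progenitors at short range. Within 20 µm there were 2.16 of them per progenitor and 2.49 per Slc4a1-high cell, a ratio of 0.868. Progenitors are larger and had fewer neighbors of any kind (22.6 against 24.0). As a share of neighbors, C1q cells were 9.53% and 10.4%, and 4.87% against 7.20% within 10 µm. Within 40 µm the shares were 11.98% and 11.85%, so the difference was seen only at short range. The ban on C1q transcripts left out 1500 of 5896 progenitors and took the Slc4a1-high cells from 63296 to 40835. It thus acted unequally on the 2 gates, and its part in the short-range shares was not tested. The ratio without it is in the closing section. The median distance to the nearest C1q cell was 15.5 µm from a progenitor and 14.02 µm from a Slc4a1-high cell. A cell can be a neighbor of several others, so these shares carry no interval. Between the 1239 progenitors with none within 20 µm and the 1574 with 3 or more, Podxl was 21.3 and 20.1 per 1000, Cd44 18.2 and 18.0, Stmn1 54.7 and 54.2 and Kit 23.24 and 25.03. Several genes of the late side were higher with C1q cells nearby. Slc4a1 was at 29.0 and 33.2, Slc25a37 at 23.8 and 26.9, Rhd at 11.4 and 12.7 and Hbb-bt at 45.6 and 49.8. Plek2, also of the late side, was level at 2.83 and 2.83. Median depth was 257 and 239 transcripts and median nucleus area 42.2 and 40.1 µm². The rare Ctsg was at 0.377 and 0.268, but at 0.260 with 1 to 2 C1q cells, so it was not graded. Neighbors of progenitors carried more hepatocyte list transcripts than neighbors of Slc4a1-high cells (9.19 against 7.25 per cell) and more granulocyte list transcripts (1.39 against 1.04).

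**Figure D5:**
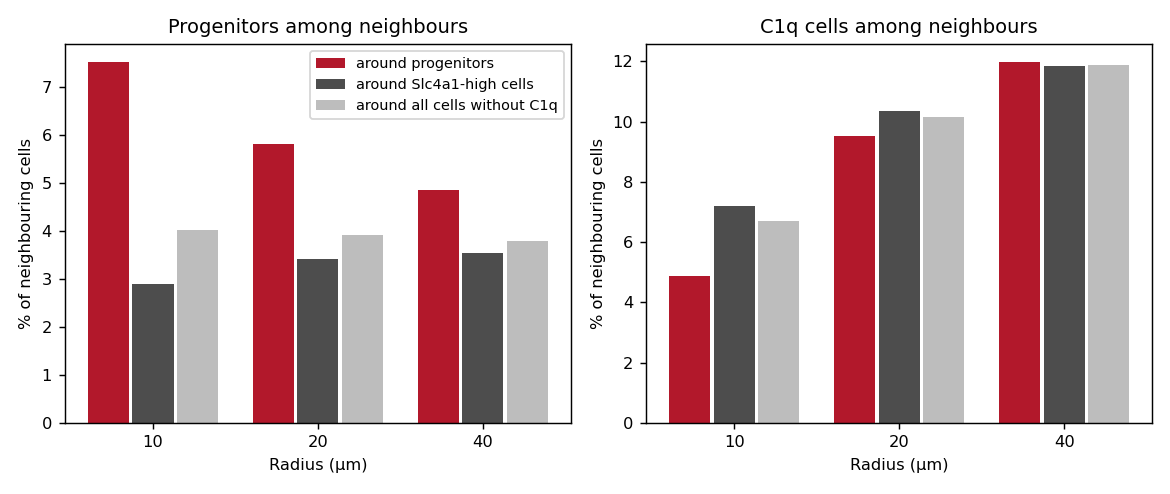
Percent of neighboring cells that were progenitors (left) or had at least 3 C1q transcripts (right), by radius (µm), around progenitors, Slc4a1-high cells and all cells without C1q in the E14.5 liver. Bars start at 0 and have no error bars, since neighbors are shared between cells, and progenitors are 5.83% of neighbors within 20 µm of a progenitor against 3.41% around Slc4a1-high cells.

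The same gate held a smaller share of the cells elsewhere. It held 281 of 52594 cells in the P8 marrow (0.534%) and 395 of 94582 in the PHZ spleen (0.418%), against 3.75% in the E14.5 liver (3.64 to 3.86). It held 10 cells in the untreated spleen, 4 in the 89-week marrow and 1 in the E13.5 liver, so those sections were not compared. In the last, on the larger panel, Kit made up 0.141 of 1000 transcripts against 2.78 in the E14.5 liver, and panel and age cannot be told apart there. Median depth per cell was 167 in the E14.5 liver, 109 in the P8 marrow and 104 in the PHZ spleen, and a fixed count threshold is harder to reach at lower depth.

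In both other sections most of the genes higher in liver progenitors also lay above 1, as did most genes counted there. In the P8 marrow 172 genes had enough transcripts, of which 32 were at least 2-fold higher (18.6%) and 8 at least 2-fold lower (4.65%), and in the PHZ spleen 165, with 47 (28.5%) and 11 (6.67%). The median ratio was 1.29 in the first, with 65.7% of genes above 1, and 1.46 in the second, with 76.4%. Of the 47 genes higher in the liver, 36 were counted in the P8 marrow, where 20 were at least 2-fold higher and 35 above 1, and 33 in the PHZ spleen, where 21 were at least 2-fold higher and 32 above 1. Of the 26 lower in the liver, 16 and 15 were counted, and 5 and 7 were at least 2-fold lower, but 7 and 6 lay above 1, with 2 and 3 of them at least 2-fold higher. Podxl had a fold of 10.2 in the P8 marrow and 4.79 in the PHZ spleen, Cd44 3.57 and 3.33, Tmem147 8.94 and 5.56, Selenbp1 3.67 and 3.71 and Stmn1 2.80 and 2.22. On the low side Slc25a37 had 0.332 and 0.300 and Plek2 0.231 and 0.431. Levels could differ where folds did not change side: Podxl averaged 0.502 transcripts per progenitor in the P8 marrow against 4.71 in the liver and 5.25 in the PHZ spleen. Aqp1 was 2.20-fold higher in liver progenitors but 1.49 and 0.868 in the other sections, and Satb1, at 4.54 in the liver, was 1.34 and 1.32. None of these differences between sections could be tested.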

How the data were processed

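For every segmented cell the deposited matrices gave whole-number gene counts, not normalized, from the instrument's software (Xenium Onboard Analysis 1.7.1.0 for the E14.5 liver, although the study's methods name Space Ranger), with positions and areas. The authors also deposited each single transcript with a quality score and a mark for overlap with a nucleus. Counts rebuilt from transcripts at a score of at least 20 differed from the deposited counts in 0 entries. A cell was an expanded nucleus outline. No cell was filtered out (each member had at least 5 genes), doublets were not called, and transcripts of neighbors were not removed. The E14.5 liver had 20952143 transcripts in cells. Between 0 and 6 cell names per section were shared with the E14.5 liver.

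Both gates used raw counts. For each gene the counts of a gate were pooled and divided by its total without the 8 gate genes. Ratios have an exact conditional binomial interval, shares an exact binomial (Clopper-Pearson) one. Genes with at least 200 counts were used. The genes named are all those of 8 lists and the 10 largest and 10 smallest ratios, except 2 genes not reported here, which were left out of the lists, and the marker lists were summed. For shares of cells with a transcript, cells were thinned to 100 transcripts, which left out 43 progenitors and 3333 Slc4a1-high cells. Neighbors were cells with centers within 20 µm. Tissue edges came from a mask of 10 µm pixels closed over 30 µm. The members, lists and thresholds were chosen with earlier results of these data known. The ratio and its interval were tested on simulated pooled counts with counting error only, so spread between cells was not covered. The thinning was run on progenitors of this section, with a check only that each cell came to 100 transcripts. Python 3.11.15, numpy 2.4.6, scipy 1.17.1 and pandas 2.3.3 were used. Alternatives, among them those added after seeing the data, are in the closing section.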

Additional observations from a re-analysis of the deposited data

Results flagged for a closer look

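For 9 genes, the ratio of progenitors to Slc4a1-high cells lay on one side of 1 in the E14.5 liver and on the other in the P8 marrow or the PHZ spleen, with each counting interval clear of 1. The search took named genes by these intervals, and other counted genes only where they were at least 2-fold in opposite directions. Smaller reversals in genes not named were not looked for, so 9 is not a count over all genes. Each section is 1 sample, and none of the differences given here was tested. The protease gene Ctse was at 1.47 in the liver, 0.496 in the P8 marrow and 0.627 in the PHZ spleen, and Aqp1 was at 2.20 in the liver and 0.868 in the PHZ spleen. The cycle genes Cenpf and Diaph3 were at 1.03 each in the liver and at 0.724 and 0.819 in the PHZ spleen. Their liver ratios did not keep to that side of 1 under other settings: they were 0.984 and 0.981 with Hbb-bt also left out of the total, 0.969 and 0.981 with Slc4a1 12 or more in the comparison cells and, in progenitors with Slc4a1 0 to 3, 0.993 and 0.963. Igfbp3 was at 0.380 in the liver, 1.84 in the P8 marrow and 1.61 in the PHZ spleen, from 46 and 41 progenitor transcripts in those sections. Pdgfra, of stromal cells, was at 0.459, 2.48 and 2.22, Fbln5 at 0.314 in the liver and 2.01 in the P8 marrow, and Sfrp1 at 0.425 in the liver and 2.57 in the PHZ spleen. The chemokine scavenger Ackr3 was at 0.469 in the liver and 3.40 in the PHZ spleen. Igfbp3, Pdgfra, Fbln5, Sfrp1 and Ackr3 each averaged under 1 transcript per cell in both gates of the liver.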

How the results depend on the processing

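Of the 33 named genes past 2-fold, 30 stayed on their side of 1 under each of the 18 gene settings that gave a value. Some of these settings could not have moved such a gene across 1. A different minimum count leaves each fold as it was. A different divisor (the total of all genes, the total without Hbb-bt, or the number of cells) changes all folds by the same factor. Among the other 9 named genes, Cenpf (0.969 to 1.46), Diaph3 (0.963 to 1.455), Tfrc (0.970 to 1.45), Isca1 (0.963 to 1.43), Ube2c (0.832 to 1.27) and Car2 (0.666 to 1.05) crossed it. With progenitors free of the megakaryocyte, mast cell and granulocyte lists, Ctsg and Cpa3 were at 0, since that choice removes them, and Runx2 at 0.704, where the cause was not tested. Under the gene settings the number of genes higher ran from 33 to 96 and lower from 4 to 91, against 47 and 26 of 328. The number of genes compared changed with the setting as well, so these counts are not shares. It was 195 where at least 1000 counts were asked for and 465 where at least 20 were. Mean counts per cell gave 96 higher and 4 lower, as progenitors hold more transcripts. Genes lower were 42 of 320 at Kit 5 or more and 43 of 358 with Slc4a1 4 or more in the comparison cells. They were 91 when progenitors alone were freed of those lists, but 28 when both gates were, an alternative chosen after seeing the data. The members were 6611 at Kit 2 or more and 2274 at Kit 5 or more. The ratio of progenitors nearby was 2.29 within 10 µm, 1.32 within 40 µm, 1.77 at Kit 5 or more and 1.52 with nuclear gates. That of C1q cells was 0.597 within 10 µm, 0.975 within 40 µm, 0.813 with the C1q limit lifted and 0.921 for at least 10 C1q counts. That of nucleus area was 1.62 at Kit 5 or more, 1.20 at 150 to 250 transcripts, 1.46 with nuclear gates and 1.45 for means. The share of progenitors at 25 to 50 µm over that at 200 µm or more was 1.97, and 1.86 to 2.33 under the other choices (chosen after seeing the data). No paired analysis was possible because each condition had 1 section. Depth limits rare genes: those with under 200 transcripts were not compared, and a gene under 1 transcript per cell is missed in many cells.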
